A study of Canis lupus familiaris with 3 samples.

Results

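EPCAM, the desmosome genes DSP and DSC2 and the claudin genes CLDN1 and CLDN4 were examined as genes of cell-cell contact in epithelial cells that contain the transcription factor E47. They were found on the array by their single annotated gene symbol, which gave 5 genes of 6043, 8 cDNA clones and 24 of 27648 spots. Their annotated human Entrez gene IDs are 4072 for EPCAM, 1832 for DSP, 1824 for DSC2, 9076 for CLDN1 and 1364 for CLDN4, and all 5 symbols are in the dog genes of assembly UU_Cfam_GSD_1.0. The cells were MDCK, an epithelial line from dog kidney. MDCK-E47 transfectants, labelled MDCK-E47_1 and MDCK-E47_2, were set against MDCK-CMV control cells on 3 two-colour arrays of human cDNA clones. All cells were grown in the same serum-supplemented medium. The design text calls the E47 samples different RNA extractions, and neither it nor the labels say whether they came from 1 transfectant clone or several, or which promoter drove E47. For the Cy5 arrays the same text names MDCK control cells and for the dye-swapped array CMV cells, whereas the labels name MDCK-CMV on all 3.

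One array held RNA of extraction 1, with the E47 RNA in Cy5. The other 2 held RNA of extraction 2 with the dyes exchanged, E47 being in Cy5 on one and in Cy3 on the other. These were averaged into 1 value, which leaves n = 2 extractions. The deposited values are log ratios of the channels, read here as log2 of E47 over control. Neither the base nor the direction is stated. E47 over control is the likely direction, because every label lists the E47 cells as the first channel and the series title names E47 in the control of E-cadherin, whose gene CDH1 was at −3.59. If the values ran the other way, each lower below would be higher. The arrays held values for 25537, 24771 and 25282 spots, in the order extraction 1, extraction 2 in Cy5 and extraction 2 in Cy3. TCF3, which encodes E47, was at −0.29 with an adjusted p of 0.118. TCF3 and CDH1 had been planned as checks of the labels. In the direction read here, added E47 transcript would give TCF3 a positive ratio, whereas the measured one was negative and did not pass. It is not known whether these human clones share sequence with the transfected E47 cDNA, so the TCF3 value is no check of the transgene.

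Epithelial cells are held together by tight junctions at their apical edge, adherens junctions below them and desmosomes along their sides. Claudins are the membrane proteins that form the strands of tight junctions and set which ions pass between cells. Desmosomes join cells through the desmosomal cadherins, desmogleins and desmocollins, whose tails are tied to keratin filaments by plakoglobin, plakophilins and desmoplakin. EPCAM is a membrane glycoprotein of many epithelia, and binding to claudin-7 and cleavage by membrane proteases are known for it. E47 is a helix-loop-helix factor that binds E-box sequences and is known as a repressor of E-cadherin.

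All 5 genes fell in E47 cells, with an adjusted p under 0.05 by limma. Of the 5508 named genes tested, 3.85% passed this threshold as lower, 5.34% as higher and 9.19% in either direction. At an unadjusted p under 0.05, 18.2% were lower and 17.4% higher, which is the background for the unadjusted counts given further on. The 5 genes were chosen with earlier results of these data known, so this count is a description. All 5 were below 0 on all 3 arrays, as were 32.8% of named genes. EPCAM and DSP were at least 2-fold lower on each array, against 0.853% of named genes. This count and share rest on base 2 and were not made for a natural logarithm. In that base the means would be 12.6-fold lower for EPCAM, 3.19-fold for DSP, 3.18-fold for CLDN1, 2.51-fold for CLDN4 and 2.29-fold for DSC2. The members' median log2 ratio was −1.16, and the median over all named genes was −0.02. In RNA from whole cultures, fewer cells with a transcript and less transcript per cell cannot be told apart. When the Cy5 array of extraction 2 was left out, the count was 2 of 5, with EPCAM at an adjusted p of 0.0395 and DSP at 0.0478, and 35 named genes in place of 212 passed as lower.

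EPCAM had the lowest log2 ratio of the 5. Its mean over 4 spots was −2.23 on the array of extraction 1, −3.52 on the Cy5 array of extraction 2 and −2.16 on the Cy3 array. The Cy5 array of extraction 2 stood below the others, whose averages over the 4 spots differed little from each other. Over extractions the log2 ratio was −2.54 ± 0.43 (SD, n = 2), with a moderated SE of 0.18 and an adjusted p of 0.0201. This is 5.81-fold lower in E47 cells, or 12.6-fold if the deposited logarithm were natural. EPCAM ranked 8 from the lowest of 5508 named genes by its mean, and its ranks were 22, 3 and 9 on the arrays of extraction 1, extraction 2 in Cy5 and extraction 2 in Cy3.

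The 2 EPCAM clones differed in size and not in sign. Clone 1 gave −1.10 on extraction 1, −2.06 on extraction 2 in Cy5 and −1.40 in Cy3. Clone 2 gave −3.37, −4.99 and −2.92 on the same arrays. Clone 2 was below clone 1 on every array, and on both clones the Cy5 array of extraction 2 was the lowest. The other arrays had opposite orders on the clones, clone 1 being lower in Cy3 and clone 2 lower on extraction 1. In a fit with 1 feature per clone, clone 1 was at −1.41 ± 0.45 and clone 2 at −3.66 ± 0.42 (SD, n = 2), with adjusted p-values of 0.0359 and 0.0172. In that fit 4.58% of 6731 named clones passed as lower. With arrays scaled to a common spread clone 1 had an adjusted p of 0.0650. The gap between the clone means was 2.25, which ranked 12 from the largest among 1040 genes with several clones, whose median gap was 0.27. The gap was not tested. The paired spots differed by at most 0.23 for clone 1 and 0.029 for clone 2 on any array, less than the gap.

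**Figure D1:**
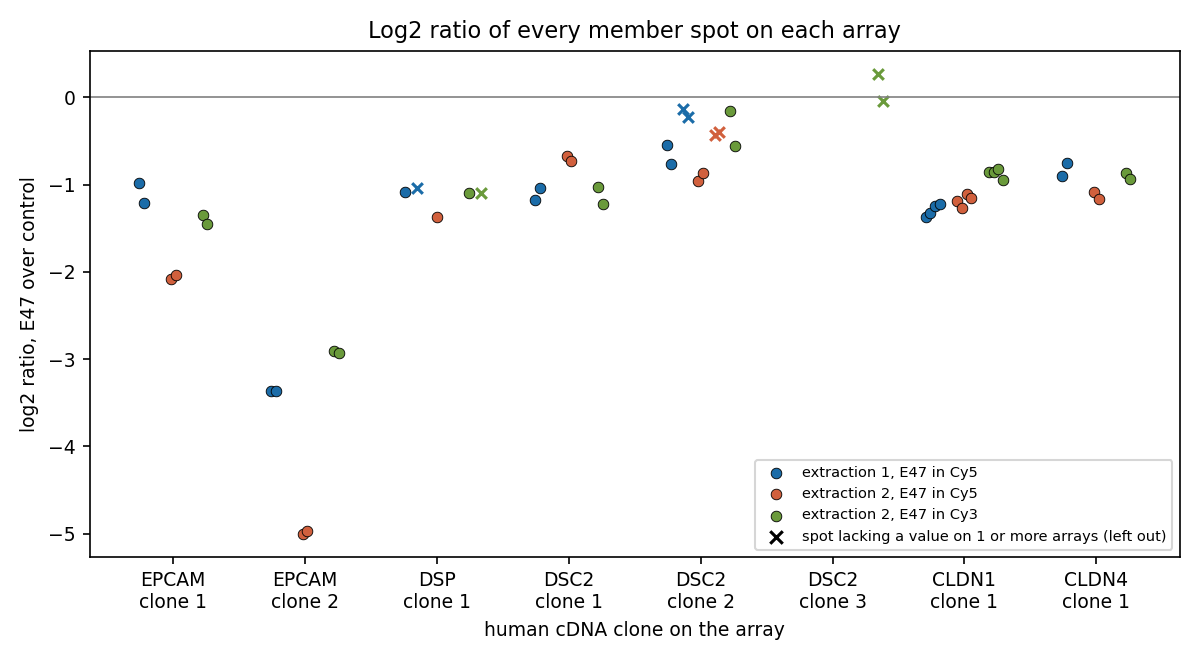
Log2 ratio of E47 over control (vertical axis) for every spot of the 8 clones of EPCAM, DSP, DSC2, CLDN1 and CLDN4 (horizontal axis), coloured by array; crosses are spots that lack a value on 1 or more arrays and were left out of the fits. All circles lie below 0, EPCAM clone 2 reaches −5.00 on the Cy5 array of extraction 2, and the crosses of DSC2 lie nearer to 0 than its circles on the Cy5 arrays.

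DSP encodes desmoplakin, the plakin that anchors keratin filaments to the desmosome. The spot with a value on every array gave −1.09 on extraction 1, −1.37 on extraction 2 in Cy5 and −1.10 in Cy3. The paired spot of the same clone had no value on the Cy5 array of extraction 2 and gave −1.04 on extraction 1 and −1.10 in Cy3. The spots therefore differed by 0.0485 and 0.001 where both were measured. DSP was at −1.16 ± 0.10 (SD, n = 2), with 0.09 as the moderated SE and an adjusted p of 0.0205, which is 2.24-fold lower in E47 cells. It ranked 82 from the lowest of 5508.

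DSC2 encodes desmocollin-2, a desmosomal cadherin of simple and stratified epithelia. Of its 12 spots for 3 clones, 4 spots of 2 clones had a value on every array and entered the fit. Clone 1 gave −1.11 on extraction 1, −0.70 on extraction 2 in Cy5 and −1.12 in Cy3. Clone 2 gave −0.66, −0.91 and −0.36. The clones thus had opposite orders in the dye swap, clone 1 being lower in Cy3 and clone 2 lower in Cy5, and their mean differed by only 0.064 between the dyes. The spots of clone 2 differed from each other by 0.22 on extraction 1 and 0.40 in Cy3, more than the 90th percentile of all spot pairs on these arrays, 0.197 and 0.0891. EPCAM clone 1 also passed both percentiles, at 0.23 and 0.10. In Cy3 so did DSC2 clone 3, left out of the fit, at 0.32, DSC2 clone 1 at 0.19 and 1 print of CLDN1 at 0.13.

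Averaged over both clones, DSC2 was at −0.83 ± 0.08 (SD, n = 2), with 0.09 as the moderated SE and an adjusted p of 0.0283. This is 1.78-fold lower in E47 cells. The call rested on which spots were used. A second print of clone 2, with no value in Cy3, gave −0.13 and −0.22 on extraction 1 and −0.43 and −0.40 on extraction 2 in Cy5. Clone 3 had values only in Cy3, at 0.27 and −0.05. With these spots kept DSC2 was at −0.61 with an adjusted p of 0.0557. Leaving out the Cy5 array of extraction 2 gave −0.81, with an adjusted p of 0.0691. Clone 2 alone had adjusted p-values of 0.0362 as reported and 0.173 with that array left out.

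CLDN1 encodes claudin-1, a tight junction claudin of kidney, skin and other epithelia that is known to seal the paracellular path. Its single clone was printed at 2 places, giving 4 spots. They gave a mean of −1.29 on extraction 1, −1.18 on extraction 2 in Cy5 and −0.87 in Cy3. All 12 spot values lay between −1.37 and −0.82, and the Cy3 array was nearest to 0. CLDN1 was at −1.16 ± 0.19 (SD, n = 2), with 0.11 as the moderated SE and an adjusted p of 0.0247, which is 2.23-fold lower in E47 cells. Leaving out the Cy5 array of extraction 2 gave −1.08, with an adjusted p of 0.0682.

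CLDN4 encodes claudin-4, a claudin of tight kidney epithelia that in MDCK cells is known to lower sodium permeability. Its clone gave −0.83 on extraction 1, −1.13 on extraction 2 in Cy5 and −0.90 in Cy3, and its 2 spots differed by at most 0.15. The order of the arrays was thus not that of CLDN1, for which extraction 1 was lowest. CLDN4 was at −0.92 ± 0.13 (SD, n = 2), with 0.10 as the moderated SE and an adjusted p of 0.0280, which is 1.89-fold lower in E47 cells. Scaling the arrays ended the call, with an adjusted p of 0.0573, as did leaving out the Cy5 array of extraction 2, with 0.0608. Because human cDNA was hybridised with dog RNA, a claudin clone may report more than 1 member of the family. The same limit holds for clones of the desmocollin and keratin families.

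The dye swap gave the same sign for each of the 5 genes. Cy5 minus Cy3 was −1.37 for EPCAM, −0.31 for CLDN1, −0.27 for DSP, −0.23 for CLDN4 and −0.064 for DSC2, so that all 5 were lower with E47 in Cy5. By absolute size EPCAM ranked 29 of 5508 named genes in this difference and DSC2 ranked 4394. Should the control cells have differed between these arrays, as the design text has it, dye and control cannot be told apart. The same holds for the dye term below. In a fit of the 3 arrays with the dye orientation as a term, which counts the 2 arrays of extraction 2 as separate samples although they share RNA, all 5 passed, at log2 ratios of −2.52 for EPCAM, −1.16 for DSP, −0.79 for DSC2, −1.05 for CLDN1 and −0.94 for CLDN4. Over all named genes the arrays correlated with r = 0.85 between the Cy5 arrays, 0.76 within the dye swap and 0.69 between extraction 1 and the Cy3 array, with no independence between genes.

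**Figure D2:**
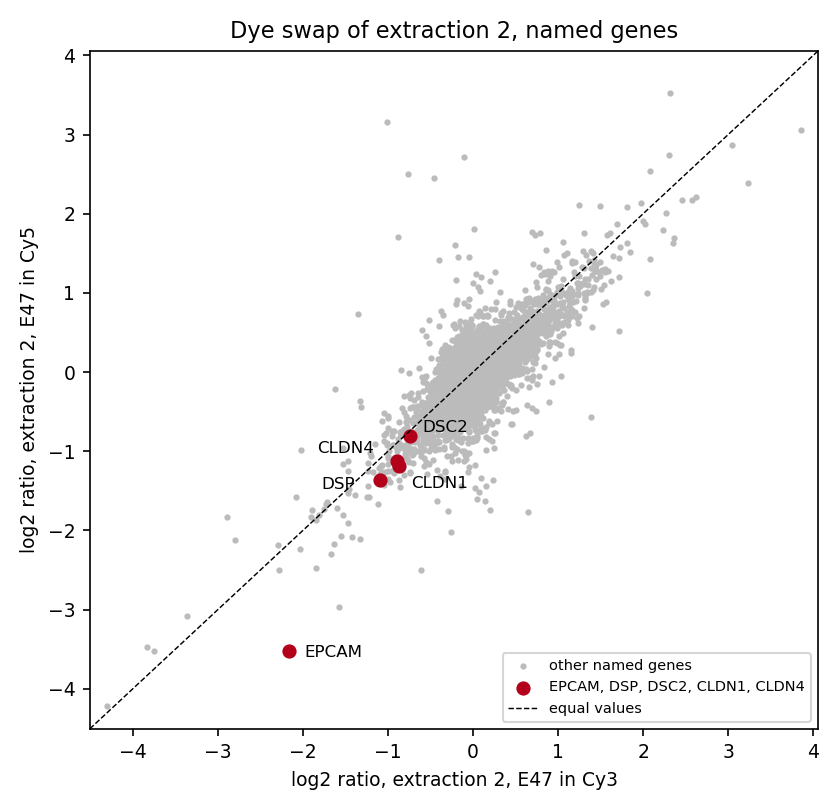
Log2 ratio on the Cy3 array (horizontal axis) against the Cy5 array (vertical axis) of extraction 2 for 5508 named genes, with the 5 genes in red and a dashed line of equal values. EPCAM, at −2.16 and −3.52, lies below the line and apart from the other 4 genes, which lie between −1.10 and −0.74 in Cy3 and between −1.37 and −0.81 in Cy5.

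In the order of the means, EPCAM was lowest, followed by DSP at −1.1612 and CLDN1 at −1.1581, then CLDN4 and DSC2. DSP and CLDN1 differed by far less than the SD of either. CLDN1 and CLDN4 differed by more than the SD of either, and CLDN4 and DSC2 by less than the SD of CLDN4. The gap from EPCAM to DSP was larger than the SD of either gene, although EPCAM clone 1 alone lay at −1.41. These are ratios of different clones, and the range that a clone can show is unknown, so the order is one of measured ratios.

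No desmosome gene beyond DSP and DSC2 passed the test. Of 11 measured genes of the desmosome, DSP and DSC2 fell, none rose and 9 did not pass, with a list median of −0.36. Of all named genes 3.85% fell and 5.34% rose. At an unadjusted limma p under 0.05, 6 of 11 were lower and 1 was higher, against 18.2% and 17.4% of all named genes. The 6 include DSP and DSC2, chosen with earlier results known. Without them 4 of 9 were lower and 1 was higher, with a median of −0.28. Below 0 on every array were 7 of the 11, or 5 of the 9 without DSP and DSC2, against 32.8% of all named genes. EVPL, which encodes envoplakin, a plakin of the desmosome and cornified envelope, was at −1.20 ± 0.50 (SD, n = 2) with an adjusted p of 0.0576. Its single spot gave −0.85 on extraction 1, −2.51 on extraction 2 in Cy5 and −0.61 in Cy3, so 1 array set much of its mean. PKP4, a plakophilin-related protein, was at −0.47 with an adjusted p of 0.0628. With the Cy5 array of extraction 2 left out, only DSP of this list passed.

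DSC2 lies in a run of desmosomal cadherin genes in the dog gene table, between DSC1 and DSC3. DSC3 was at −0.36 with an adjusted p of 0.0883, below 0 on all 3 arrays. DSC1 was at 0.12, with −0.20 on extraction 1, 0.92 on extraction 2 in Cy5 and −0.05 in Cy3. DSG1, next to DSC1, was at −0.03, and CDH2, which encodes N-cadherin and lies beyond DSC3, was at 0.02. None of these neighbours passed, and their differences from DSC2 were not tested. DSG2, the desmoglein of simple epithelia, was at 0.25 with an adjusted p of 0.146. Within 3 genes of the others, IL1RAP near CLDN1 fell, at −0.58 with an adjusted p of 0.0445. SSR1 and BMP6 near DSP, at 0.52 and 0.07, and ELN near CLDN4, at −0.15, did not pass. These neighbours and DSG2 were named after their values were seen.

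Among plakins and the intermediate filament proteins that desmosomes anchor, 6 of 11 measured genes fell and none rose by limma. Of all named genes 3.85% fell and 5.34% rose. At an unadjusted limma p under 0.05, 9 of the 11 were lower and none higher, against 18.2% and 17.4% of all named genes. The list median was −1.05. Without DSP 5 of 10 fell. These were the keratin genes KRT19 at −3.54, KRT14 at −2.57, KRT16 at −1.08, KRT7 at −1.05 and KRT8 at −0.99. Their adjusted p-values ran from 0.0194 to 0.0309. EVPL, a member here too, and KRT20 at −0.46 were the lowest of those that did not pass. The count of list genes that fell, DSP included, was 3 without the Cy5 array of extraction 2.

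Claudins were represented by 3 measured genes. CLDN1 and CLDN4 fell, and CLDN2 did not pass. Of all named genes 3.85% fell and 5.34% rose. CLDN1 and CLDN4 were chosen with earlier results known, and without them only CLDN2 is left in this list. CLDN2 encodes claudin-2, which forms cation pores and is known to distinguish leaky from tight MDCK strains. Its clone gave 0.50 on extraction 1, 0.26 on extraction 2 in Cy5 and 0.60 in Cy3. All 3 values were above 0, and the mean was 0.46 ± 0.05 (SD, n = 2) with an adjusted p of 0.0642. When named genes alone were tested, CLDN2 passed as higher. Without the Cy5 array of extraction 2 no claudin passed.

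Other tight junction and polarity genes did not move together. Of 12 measured genes 1 fell and 1 rose, where 3.85% and 5.34% of all named genes did. The list median was −0.12. YBX3, a Y-box protein found at tight junctions and in the nucleus, was at −0.92 with an adjusted p of 0.0265. AMOT, which encodes the scaffold angiomotin, was at 0.77 with an adjusted p of 0.0304 and was measured by 1 spot. PATJ, a scaffold of the Crumbs complex, was at −0.57 and JAM2, a junctional adhesion molecule, at 0.54, with adjusted p-values of 0.0662 and 0.102. Neither YBX3 nor AMOT passed without the Cy5 array of extraction 2.

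Of 16 measured genes of EPCAM partners and signalling, 3 fell, EPCAM among them, and 2 rose, with a median of 0.04. Of all named genes 3.85% fell and 5.34% rose. SPINT1 and SPINT2 encode Kunitz-type inhibitors of membrane serine proteases, and loss of SPINT2 is known to destabilise EPCAM. SPINT1 was at −0.97 on extraction 1, −0.44 on extraction 2 in Cy5 and −1.31 in Cy3, and SPINT2 was at −0.96, −1.01 and −0.74 on the same arrays. Both were below 0 throughout, with a mean of −0.92 and an adjusted p of 0.0247 for each. The tetraspanin gene TSPAN8 rose, at 0.93, as did CD44, the gene of a hyaluronan receptor, at 0.96, with adjusted p-values of 0.0241 and 0.0247. CTNNB1, which encodes beta-catenin, was at 0.42 and MYC at 0.28, with adjusted p-values of 0.0712 and 0.125. Leaving out the Cy5 array of extraction 2, 1 of the 16 passed as lower and none as higher.

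Adherens junction genes included 2 that fell among 15 measured, and none rose, against 3.85% and 5.34% of all named genes. At an unadjusted limma p under 0.05, 6 were lower and 1 higher, against 18.2% and 17.4% of all named genes. The 2 that fell were CDH1, with an adjusted p of 0.0194, and CTNND1, which encodes p120-catenin, at −0.80 with an adjusted p of 0.0332. CDH1 also served to choose the direction of the ratios, so its sign is not an independent result. AFDN, the nectin-binding protein afadin, was at −0.54 with an adjusted p of 0.0576 and JUP, plakoglobin, which serves adherens junctions and desmosomes alike, at −0.46 with 0.0884. The list median was −0.25, and the count of lower genes was 1 without the Cy5 array of extraction 2 and 5 without its Cy3 array. Of 5 measured gap junction genes none passed in the limma test and 1 was higher at an unadjusted p under 0.05, a share near the background of 17.4%. GJB1 at −0.42 and GJB2 at 0.29 were farthest from 0. The list median was −0.01, with a sign that turned under other settings. Outside the 5 genes, the 7 lists held 64 measured genes. Of these 10 fell, CDH1 among them, and 3 rose, where 3.85% and 5.34% of all named genes did. Without the Cy5 array of extraction 2, 3 fell and 0 rose.

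**Figure D3:**
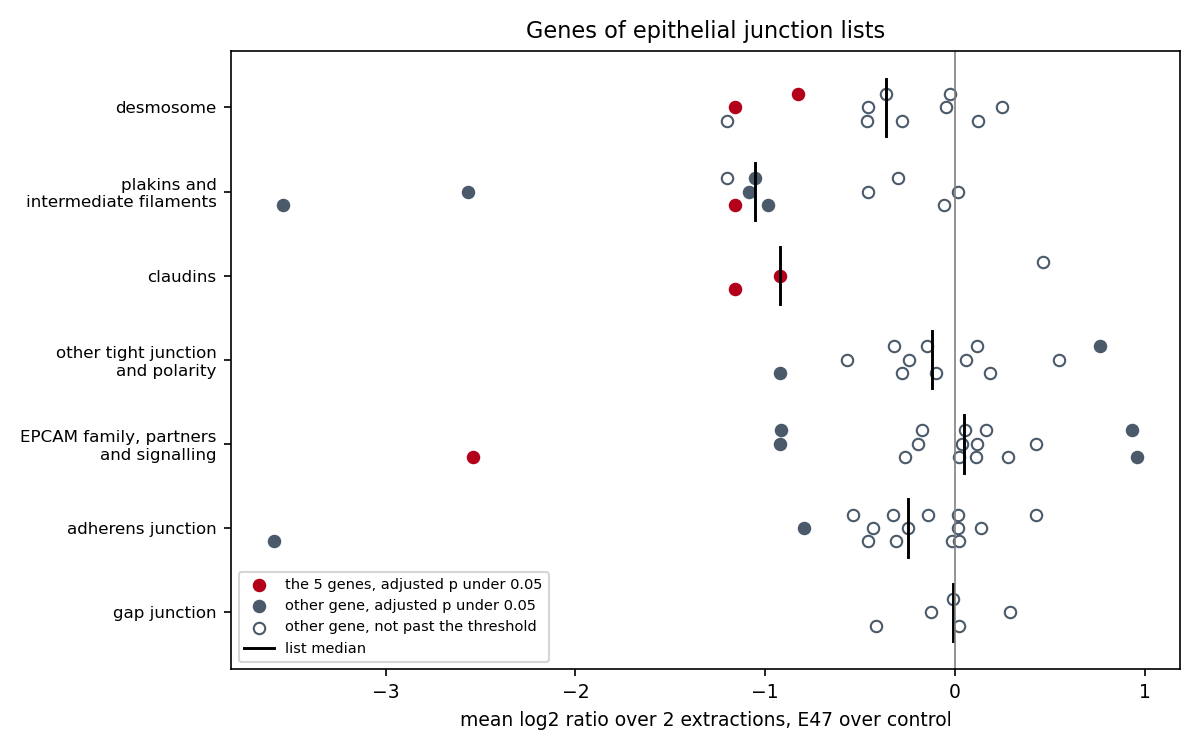
Mean log2 ratio of E47 over control across 2 extractions (horizontal axis) for each measured gene of 7 junction lists (rows), with filled points past an adjusted p of 0.05 and black bars at list medians. The medians run from −1.05 for plakins and intermediate filaments to 0.04 for EPCAM partners and signalling, and the 5 genes, in red, lie at −0.83 and below.

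The genes nearest to each of the 5 over the 3 arrays were found by Euclidean distance between log2 ratios. EPCAM had no close neighbour: TSPAN13, ABLIM1 and STARD10 lay 1.08, 1.11 and 1.15 away. The nearest to DSP were CTH, PSAT1 and ARPC1B, at distances of 0.13 to 0.16. DSC2 was nearest to ABHD14B, ANK3 and RPL10, at 0.089 to 0.11. CLDN1 was nearest to PLAU, LAGE3 and the keratin gene KRT7, at 0.13 to 0.19, and CLDN4 to MMP14, MRPL37 and PLK2, at 0.14 to 0.15. With 3 arrays of which 2 share RNA, such likeness describes size more than pattern.

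Ratios hold no level, so the presence of a marker in either culture cannot be read from them. Of 7 measured epithelial markers 6 were lower and none higher, against 3.85% and 5.34% of all named genes. Among the 6 were EPCAM and DSP, chosen with earlier results known, and CDH1, which served to choose the direction. CDH16, kidney cadherin, was at −0.14 with an adjusted p of 0.303. Of 7 mesenchymal markers 4 were higher and none lower, against 5.34% and 3.85% of all named genes. SPARC at 2.85 and FN1 at 2.29 led, while CDH2 at 0.02, THY1 at 0.02 and ACTA2 at −0.11 did not pass. None of 4 endothelial markers passed by limma, and 1 was higher at an unadjusted p under 0.05, where 17.4% of all named genes were. Of 3 leukocyte markers PTPRC was higher at 1.03, from 1 spot, and CD14 and CD68 were at −0.04 and 0.03. Both cultures were of the MDCK line, so no other cell type was part of the design, and the purity of the cultures was not tested.

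**Figure D4:**
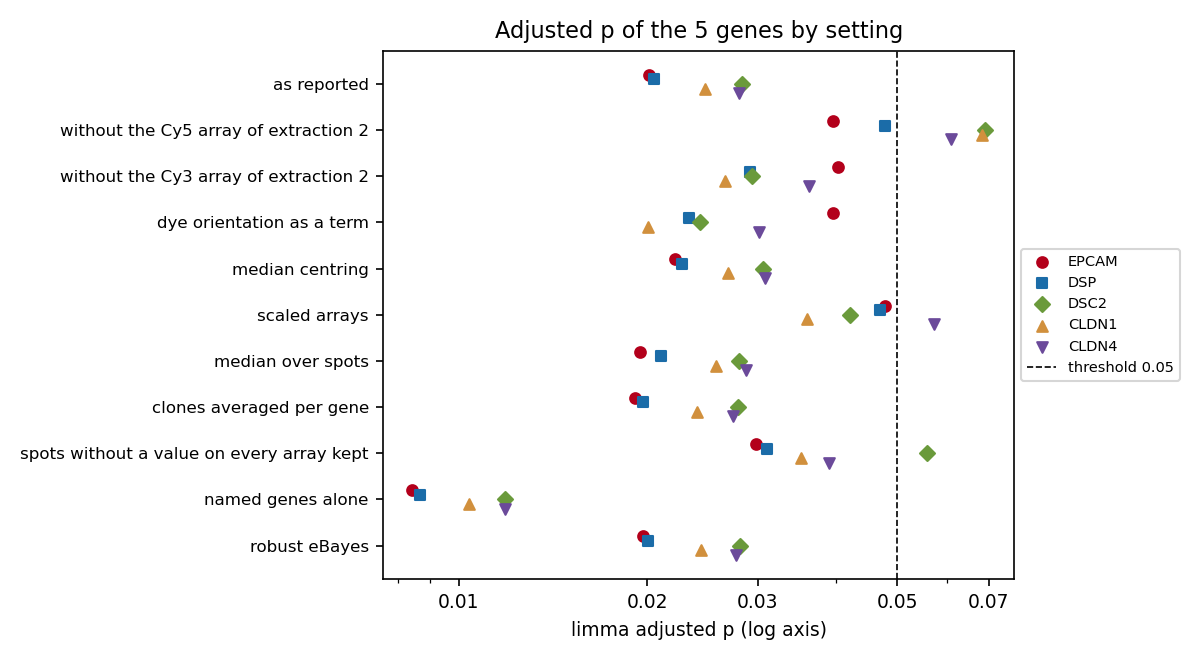
Adjusted p of the limma test (horizontal log axis) for the 5 genes, marked by colour and shape, under the reported setting and 10 other settings (rows), with a dashed line at 0.05. DSC2, CLDN1 and CLDN4 lie past the line without the Cy5 array of extraction 2, CLDN4 with scaled arrays and DSC2 with incomplete spots kept, while EPCAM and DSP stay under it in each setting drawn.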

How the data were processed

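RNA ratios of E47 transfectants over control MDCK cells were analysed from 3 two-colour arrays. The deposited values are log2 ratios as read here; base 10 was set aside because the largest value, 7.80, is above 4.82, the log10 range of a 16-bit scanner, while a natural log remains possible. Of background correction, normalization and software no source used here tells, nor of the ratio's direction, and no intensities were used, so dim spots could not be filtered. Column medians were −0.00506 for extraction 1, 0.000767 for extraction 2 in Cy5 and 0.00266 in Cy3. The annotation gave 1 symbol for 17488 spots, several for 654 and none for 9506. Blank and NULL cells were taken as missing.

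The 23275 spots measured on each of the 3 arrays were averaged per gene, or tested singly where the platform annotation gave no symbol or several. The dye swap was averaged. Ratios of 14008 features were tested against 0 with limma 3.58.1 in R 4.3.3 (lmFit, eBayes, Benjamini-Hochberg, threshold 0.05), with 1 residual and 2.71 prior degrees of freedom, after a check on simulated data. Taking the control as common reference leaves out its spread, and since separate cultures are not stated, p-values measure only the spread between these extractions, which may be technical. The number of arrays limits precision. Median differences between the paired spots of a clone were 0.051, 0.051 and 0.028 on extraction 1, extraction 2 in Cy5 and in Cy3.

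The 5 genes, lists and tests were chosen with earlier results of these data known. The naming rule took the 5 genes, TCF3, CDH1, of each junction list the genes that passed and up to 2 that did not with the largest ratio, and 3 nearest genes per member. Of 15 alternatives to the replicates, dyes, normalization, spots, features, moderation and threshold, 1 could not be fitted. Figures were drawn with matplotlib 3.10.9. No clone or protein sequence was used here.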

Additional observations from a re-analysis of the deposited data

How the results depend on the processing

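No result on the 5 genes changed sign, and each kept its call with median centring, the median over spots, clones averaged per gene, robust eBayes, the dye term and without the Cy3 array of extraction 2. Without the Cy5 array of extraction 2, 2 of the 5 genes passed, with DSC2 at −0.81, CLDN1 at −1.08 and CLDN4 at −0.86 not passing, nor DSC2 clone 2 at −0.51. Of the 64 measured genes of the 7 lists outside the 5 genes, 3 genes were then lower and 0 higher, and of all named genes 35 and 74. Scaled arrays ended the calls of CLDN4 at −0.89 and EPCAM clone 1 at −1.39. Keeping incomplete spots ended those of DSC2 at −0.61 and DSC2 clone 2 at −0.46. Named genes passing as lower and higher numbered 471 and 448 without the Cy3 array of extraction 2, 551 and 624 when named genes alone were tested, and 319 as lower with the dye term. With named genes alone 18 list genes outside the 5 were lower and 5 higher, and the desmosome list had 6 lower in place of 2. At an adjusted p under 0.01 the count was 0 for the 5 genes, their clones, the lists and all named genes, the smallest adjusted p of the fit per gene being 0.0194, so that EPCAM at −2.54, DSP at −1.16, DSC2 at −0.83, CLDN1 at −1.16, CLDN4 at −0.92, and the clones at −1.41 and −3.66 for EPCAM and −1.01 and −0.65 for DSC2 did not pass. The gap junction median, −0.01, was 0.029 without the Cy5 array of extraction 2, 0.031 with the dye term and 0.015 with scaled arrays. Leaving out 1 extraction at a time, as values with no test, gave −2.84 to −2.23 for EPCAM, −1.23 to −1.09 for DSP, −0.88 to −0.77 for DSC2, −1.29 to −1.03 for CLDN1 and −1.01 to −0.83 for CLDN4. The extraction as a random block gave no estimate of a correlation and was not run. Each ratio already pairs E47 with control RNA on 1 array, so no separate paired analysis was run. Signal over background is unknown, which limits every value.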
